A study of Mus musculus with 18 samples.

Results

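V(D)J recombination substrates are cut by the RAG nuclease at a pair of recombination signal sequences, and most repaired coding ends meet again at the borders of those signals. The joins described here are the exceptions. They stayed on the integrated substrate but landed away from the windows that hold coding joins, joins onto the signal sides and joins onto the inverted bait. Members were chosen by the strand and position of the prey, the sequence to which the bait end was joined, and not by any measured frequency. They numbered 731 of 9015 substrate junctions, or 8.11%, and made up 2.36% of the 30937 junctions in the 12 libraries.

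All libraries came from v-abl-transformed B cells of strain 129, a line of precursor B cells kept dividing by a viral oncogene, that carried a stably integrated pMX-INV substrate. DNA-PKcs was present in 6 libraries, from wild-type and from CtIP A/A cells. It was missing from the other 6, from DNA-PKcs -/- cells and from the double mutant, CtIP A/A DNA-PKcs -/-. Each genotype had 1 library from G1 cells, arrested by STI571 (3 µM, 48 or 72 h), which inhibits Abl. It also had 2 libraries from cells given STI571 for 24 h and then held in G2 with the CDK1 inhibitor RO3306 (10 µM, 48 h). The labels do not say whether libraries of 1 genotype came from separate cultures or clones, which means that p-values reflect only how these libraries varied, and genotype and cell line cannot be told apart. The junction tables hold no measurement of CtIP, DNA-PKcs or B cell markers. The 6 samples with I-PpoI breaks were not analysed here.

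In V(D)J recombination, RAG leaves each coding end as a closed hairpin. DNA-PKcs, a kinase of classical non-homologous end joining, works with the nuclease Artemis to open it. CtIP promotes the resection of DNA ends, and in the A/A allele an alanine takes the place of the residue that ATM and ATR phosphorylate. Joins made without classical end joining often carry short stretches of sequence shared by both ends, called microhomology, and more deletion. In pMX-INV the productive coding join inverts the segment between the signals.

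The assay, high-throughput genome-wide translocation sequencing or HTGTS, reads from a fixed primer into the break, so every read starts in the bait and changes to the prey at the junction. The designed oligonucleotides set where each read begins, and they are shown because 1 of the recurrent prey positions is the first base of the nested primer. They are written 5′ to 3′ in lower case throughout, and both lie on the reverse strand of the substrate, at 2136 to 2154 and at 2102 to 2121.
biotinylated primer: caaccactacctgagcacc
nested primer: caaagaccccaacgagaagc
From there the bait ran towards lower positions and reached the coding border. The bait signal followed, with its heptamer CACAGTG at 1936 to 1942, a 12 bp spacer and its nonamer ACAAAAACC at 1915 to 1923. The site for BstBI, the enzyme used to remove germline substrate, lay at 1904 to 1909. The partner signal had a 23 bp spacer and its heptamer at 2806 to 2812, and its first coding base was 2813. An exact search of both strands of the sequence that the reads covered (4690 positions) found the heptamer at 1 further place, on the forward strand at 1710 to 1716.

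A prey on the forward strand runs back against the bait and is called turned, which is the direction of a coding join. A prey on the reverse strand keeps the direction of the bait and is called onward. The members fell in 6 windows. Turned joins below the bait heptamer (up to 1935), called here turned joins below the bait signal, numbered 265. Their window includes the spacer and nonamer of that signal. Onward joins beyond the partner border (2819 and above) numbered 202. These windows together held 467 joins, or 63.9% of the members. Onward joins within the bait segment (from the base after the heptamer to past the primers) numbered 114, and deep turned joins in the partner side (3814 and above) numbered 108. The smallest windows were onward joins far below the bait signal (up to 942), with 35, and turned joins just short of the partner signal (2601 to 2799), with 7.

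The edges of the windows differ in how crowded they are. Within 50 bp of the edge at 2799, 1 join lay inside and 5529 lay outside, where the coding joins are. The edge at 2819 had 3 inside and 246 outside, and the edge beside the bait heptamer had 31 inside and 308 outside. At 1935 the numbers were 21 and 102. The edge at 3814 lay in sparse sequence, with 5 inside and 3 outside.

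**Figure D1:**
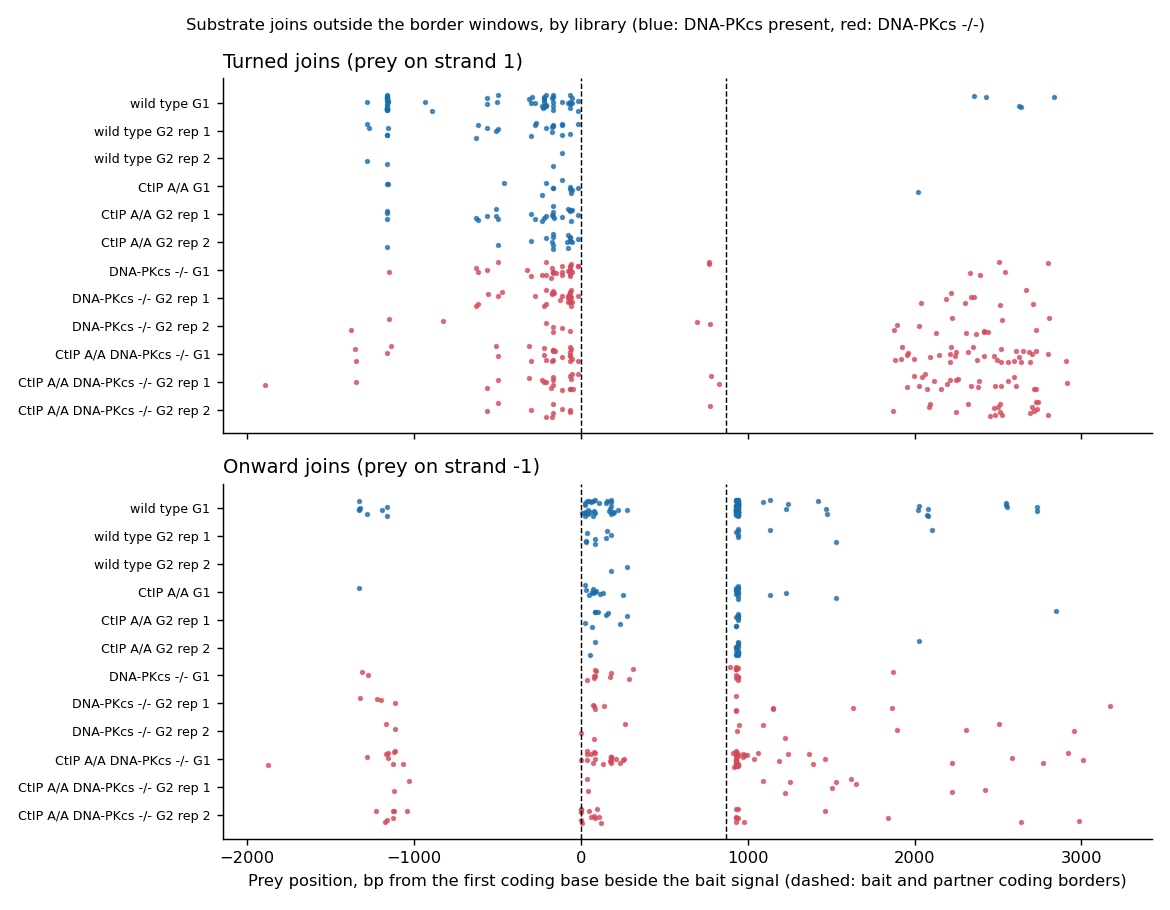
Each point is 1 join, placed by its prey position in bp from the first coding base beside the bait signal, with a row for each library and dashed lines at the bait and partner coding borders. Deep turned joins, at the right of the upper panel, numbered 102 in the libraries without DNA-PKcs and 6 in those with it.

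Libraries differed in depth and in the share of these joins. Wild-type cells gave 170 of 1176 substrate junctions in G1 (14.5%), and 39 of 370 (10.5%) and 6 of 185 (3.24%) in G2. The wild-type libraries alone span both the lowest and the highest share. CtIP A/A cells gave 40 of 531 in G1 (7.53%), and 44 of 353 (12.5%) and 35 of 372 (9.41%) in G2. DNA-PKcs -/- cells gave 61 of 1384 in G1 (4.41%), and 56 of 850 (6.59%) and 36 of 561 (6.42%) in G2. The values for CtIP A/A DNA-PKcs -/- cells were 126 of 1855 in G1 (6.79%), and 58 of 458 (12.7%) and 60 of 920 (6.52%) in G2. The shares of the 4 genotypes overlap. The shallowest library, the second wild-type G2 replicate, has a 95% Wilson interval of 1.49% to 6.89%. Such intervals cover counting error only, because reads from PCR without molecular identifiers are not independent molecules.

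With equal weight for each of 4 strata (CtIP wild type or A/A, in G1 or G2), the share of substrate junctions was 9.95% with DNA-PKcs and 6.82% without it. The difference of -3.13 percentage points (95% interval -8.06 to 3.25) did not pass an exact two-sided permutation test (p = 0.306, adjusted p = 0.611, lower in 4 of 4 strata). The wild-type G1 library weighs on this value, and without it, and so without the CtIP wild-type G1 stratum, the difference was -0.825. CtIP A/A cells differed from CtIP wild type by 0.649 percentage points (-4.63 to 7.65, exact permutation p = 0.819, adjusted p = 0.975, higher in 3 of 4 strata). G2 differed from G1 by 0.184 points (-5.74 to 5.40, exact permutation p = 0.975, adjusted p = 0.975, higher in 3 of 4 strata). These intervals allow differences of several points in either direction.

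As a share of all junctions, telomere and genome joins included, the members ranged from 2.08% to 8.22% with DNA-PKcs (5.67% ± 2.14, SD, n = 6). Without DNA-PKcs the range was 1.21% to 2.11% (1.59% ± 0.317, SD, n = 6). The lowest library with DNA-PKcs lies just under the highest library without it, and the other 5 lie above. The stratified difference was -4.0 percentage points (-6.29 to -2.20, lower in 4 of 4 strata). Its exact permutation p of 0.0139 is the smallest that 144 arrangements can give, and adjusted over the 4 share tests it was 0.0556, short of the 0.05 threshold. Within sequencing run 1 the difference was -6.30 and within run 2 it was -2.98. Over a total without telomere-repeat junctions it was -2.72 (exact permutation p = 0.0417, adjusted p = 0.167). These values also follow the substrate share of a library, which was lower without DNA-PKcs. Substrate junctions numbered 1176 of 2993, 370 of 535 and 185 of 289 in wild type (G1, then G2). In CtIP A/A they numbered 531 of 834, 353 of 535 and 372 of 586. In DNA-PKcs -/- they numbered 1384 of 5042, 850 of 3663 and 561 of 2381. For the double mutant the counts were 1855 of 7068, 458 of 4170 and 920 of 2841.

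Turned joins below the bait signal were the largest class and appeared in every library. With DNA-PKcs they made up 4.85%, 6.22% and 2.16% of substrate junctions in wild type (G1, then the G2 replicates) and 2.45%, 7.37% and 4.57% in CtIP A/A cells. Without it the shares were 2.17%, 3.65% and 1.43% in DNA-PKcs -/- cells and 1.40%, 4.37% and 1.09% in the double mutant. The ranges overlap. The stratified difference was -2.15 percentage points (-4.79 to -0.209, exact permutation p = 0.0417, adjusted over 6 windows p = 0.111, lower in 4 of 4 strata). Without the second wild-type G2 replicate it was -2.66, with an adjusted p of 0.0417. Among G2 libraries, the first replicate, which was in another sequencing run than all other libraries, was higher than the second in 4 of 4 genotypes. The difference by DNA-PKcs was -2.78 within that run and -1.99 within the other.

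This window held joins of different structure on either side of position 943, a division made after the values were seen. Above it, at 1006 to 1928, lay 222 joins from all 12 libraries. Of these, 192 (86.5%) shared 4 bp or more between bait and prey, and only 12 carried an insertion and 2 were direct. Lengths of 4 to 9 bp were the usual ones, 6 bp being the most frequent with 40 joins. The bait had lost more than 20 bp in 147 of the 222, and its median end was 2062.5, well inside the bait segment. In a further 32 the bait ran past its whole heptamer.

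The same pairs of bait end and prey position returned in library after library. Of the 222 joins, 163 belonged to exact pairs seen in 3 or more libraries. Over the whole window there were 26 such pairs with 169 joins. Of these pairs, 15 occurred in all 4 genotypes and 22 had 4 bp or more of shared sequence, and each pair always had a single overlap length. Recurrence of this degree was not particular to the window. Pairs seen in 3 or more libraries held 63.8% of its joins, 58.5% of coding joins and 63.9% of joins onto the inverted bait. Of the joins onto the inverted bait, 54.0% also shared 4 bp or more. By contrast, no pair in the deep turned window, in the turned window short of the partner or in the onward window far below the bait signal was found in 3 libraries.

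The most widespread position was 1774. It took 5, 2 and 1 joins in wild type, 2, 3 and 4 in CtIP A/A, 3, 1 and 2 in DNA-PKcs -/- and 4, 3 and 2 in double-mutant libraries (G1, then G2). In 20 of these 32 joins, with at least 1 in each of the 12 libraries, the bait ended at 2082 and 9 bp were shared. No library lacked it. Position 1879 had 28 joins in 11 libraries, of which 15 had a bait end of 2084 and 4 shared bp. Position 1732 had 15 joins in 11 libraries, 14 of them with a bait end of 1927 and 6 shared bp. Position 1830 had 13 joins in 11 libraries, 10 of them with a bait end of 2064 and 7 shared bp. At each of these positions a single bait end accounted for most joins. As shares of substrate junctions, 1774 stood at 0.635% ± 0.272 with DNA-PKcs and 0.296% ± 0.191 without (SD, n = 6 each), and 1879 at 0.304% ± 0.185 and 0.338% ± 0.187. For 1732 the shares were 0.211% ± 0.109 and 0.157% ± 0.0685, and for 1830 they were 0.273% ± 0.228 and 0.137% ± 0.0574. The ranges of the libraries overlap at all 4 positions, and single positions were not tested.

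The further heptamer on the forward strand was itself a prey position. Position 1710, its first base, took 5 joins in 5 libraries of all 4 genotypes. In each of them the bait ended at 1936, the last base of the bait heptamer as the bait reads it, and the 7 shared bp were the heptamer. Position 1710 was picked out after its values were seen.

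Many of these preys ran through sequence that a cleaved or digested substrate would not hold in 1 piece. Of the turned joins below the bait signal, 56 had a prey that spanned the whole bait heptamer with sequence on both sides, and 62 had a prey that covered the BstBI site, which was read as the intact site in 59. Among the onward joins in the bait segment the numbers were 20 and 7. Preys over the BstBI site were not particular to the members. Of the 557 joins onto the bait's signal side, 96 covered it, and 75 of these were read as the intact site. None of the 557 spanned the whole bait heptamer. No bait alignment among the 30937 junctions covered the BstBI site. The part of undigested or uncut substrate in the members was not tested.

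**Figure D2:**
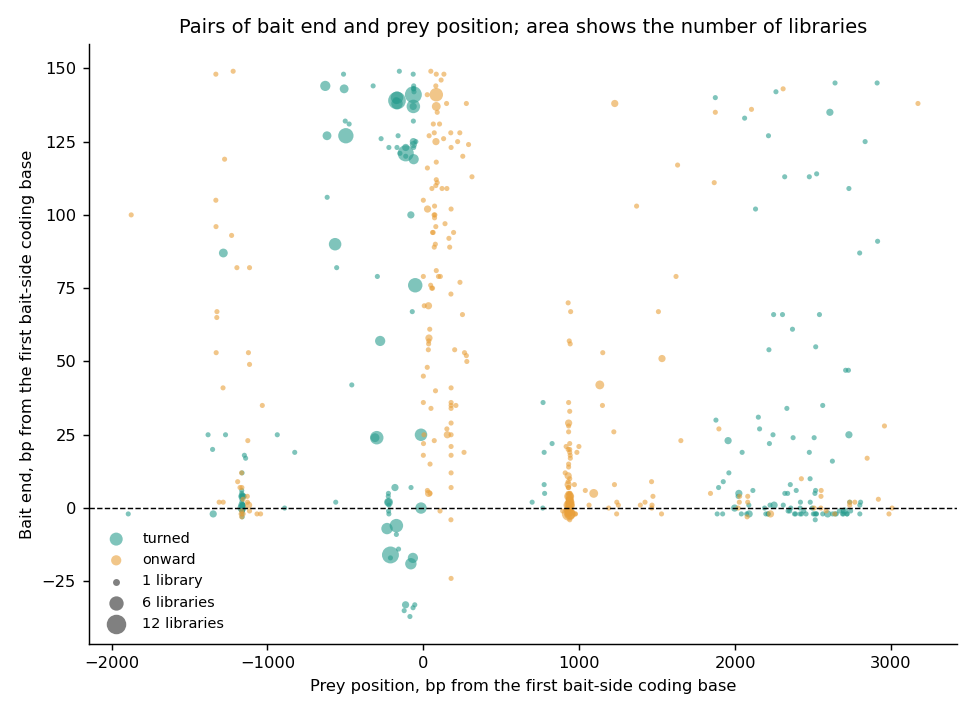
Each circle is a pair of prey position and bait end, both in bp from the first bait-side coding base, with area set by the number of libraries (12 at most) and colour by direction. The large circles left of 0 are the recurrent turned pairs, and the dense column of onward joins near the right of the partner border has bait ends close to 0.

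Below position 943 the turned joins were few, with 43 in all. The bait ended within 20 bp of 1947, its most frequent end, or in the heptamer in 38 of the 43, with a median end of 1944. Insertions were present in 20, 9 were direct and 3 had 4 bp or more of shared sequence. They numbered 34 in libraries with DNA-PKcs (0.952% ± 0.580 of substrate junctions, SD, n = 6) and 9 in those without (0.180% ± 0.187, SD, n = 6). The ranges were 0.269% to 1.79% and 0% to 0.437%, which overlap.

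Most of them fell within a few bases of each other, at 778 to 786. This stretch was chosen after its values were seen, so its counts are a description with no test. In wild type, G1 cells gave 20 such joins and the G2 replicates 3 and 1. In CtIP A/A, G1 cells gave 2 and the G2 replicates 3 and 1. Of the libraries without DNA-PKcs, the double mutant in G1 held 1 and the other 5 held none. As shares of substrate junctions these were 0.758% ± 0.516 (SD, n = 6) with DNA-PKcs and 0.00898% ± 0.0220 (SD, n = 6) without. The values do not overlap, but a count of 0 allows up to 0.217% to 0.655% in the 5 libraries without any, which reaches the lower shares with DNA-PKcs (0.269% and 0.377%).

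In the 30 joins with DNA-PKcs, the bait ended between 1940 and 1955. They had 24 different pairs of ends, with insertions of up to 4 bp in 17, direct joining in 4 and at most 3 bp of shared sequence in 9. The position used most was 779, with 10 joins in 5 libraries, all with DNA-PKcs. Onward joins in the same stretch numbered 4. The 3 bases before 779 are GTG, which on the reverse strand read CAC, the start of a heptamer. There 4 of the 7 heptamer bases match, and 1.45% of 4677 positions of the sequence read have GTG and as good a match. The nonamer matched in 4 of 9 bases at a spacer of 12 bp, which 16.3% of positions equal or exceed. At a spacer of 23 bp, as in the partner signal, it matched in 3 of 9 bases, which 38.0% equal or exceed. A match of letters is a description and shows no cutting at the site.

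Onward joins beyond the partner border were the second class. In wild type their share of substrate junctions was 5.95% (G1), 2.16% and 0% (G2 replicates), and in CtIP A/A cells 2.64% (G1), 2.55% and 4.30% (G2 replicates). In DNA-PKcs -/- cells the shares were 0.867%, 0.941% and 1.43%, and in double-mutant cells 1.99%, 1.97% and 1.20%. The library with no such join was the shallowest, where 0 of 185 allows up to 1.62%. The other 5 libraries with DNA-PKcs all lie above every library without it. The stratified difference of -1.87 percentage points (-4.17 to 0.418) did not pass the exact permutation test (p = 0.111, adjusted p = 0.133, lower in 3 of 4 strata). Without the shallowest library it was -2.14, with an adjusted p of 0.0417. Without the wild-type G1 library, and so without its stratum, it was -0.795. With the cluster described next left out, it was 0.107 (exact permutation p = 0.806, adjusted p = 0.806).

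Of the 202 joins, 132 had their prey at 11 positions between 2870 and 2888, a cluster delimited after its values were seen. Position 2882 took 46 joins in 7 libraries, 2875 took 44 in 9, and 2884 took 19 in 7. With DNA-PKcs the cluster held 53, 5 and 0 joins in wild type and 11, 8 and 15 in CtIP A/A cells. Without DNA-PKcs it held 10, 3 and 2, and in the double mutant 19, 0 and 6. The wild-type G1 library held the most, and is also the deepest of those with DNA-PKcs. Set against the coding joins of the same library, these are 3.17% ± 2.31 (SD, n = 6) with DNA-PKcs and 0.669% ± 0.462 (SD, n = 6) without, with overlapping ranges (0% to 6.38% and 0% to 1.29%). Outside the cluster the window held 39 joins from 2891 up to the deep stretch, 28 in the deep stretch from 3814 and 3 at 2819 to 2865.

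Most reads of this cluster had a common build, less regularly so in the libraries without DNA-PKcs. An insertion of 10 bp or more lay between bait and prey in 116 of the 132, with a median of 24 bp and a range of 12 to 30 bp. In 115 of these 116 the inserted bases held an exact run of at least 10 bp from the partner coding end, in the direction of a coding join, with a median length of 21 bp. The run began at a median position of 2820, beside the partner border, and ended at a median of 2838. Counted by library, it was found in 52 of 53 (G1) and 5 of 5 (first G2 replicate) cluster joins in wild type. In CtIP A/A cells it was found in 11 of 11, 8 of 8 and 15 of 15. In DNA-PKcs -/- cells the counts were 9 of 10, 3 of 3 and 0 of 2. In the double mutant they were 8 of 19 (G1) and 4 of 6 (second G2 replicate). The bait had kept its end to within 20 bp of 1947 or reached into the heptamer in 122 of the 132. A read with such a run therefore passed from the bait into the partner as a coding join does and went forward to about 2838. It then continued on the opposite strand from about 2882 back to a median of 2840.5. In such reads the stretch that the tables leave between the alignments is itself partner sequence, and the position given for the prey is that of its second, reversed part.

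Deep turned joins had the direction of coding joins but lay 1002 bp or more into the partner side. With DNA-PKcs, 5 were found in wild-type G1 (0.425% of substrate junctions), 1 in CtIP A/A G1 (0.188%) and none in the 4 G2 libraries. Without DNA-PKcs, the DNA-PKcs -/- libraries held 5 in G1 (0.361%) and 9 (1.06%) and 13 (2.32%) in G2. The double-mutant libraries held 33 in G1 (1.78%) and 23 (5.02%) and 19 (2.07%) in G2. The groups overlap in the G1 libraries of wild-type and DNA-PKcs -/- cells. In the 4 G2 libraries with DNA-PKcs, a count of 0 allows up to 0.806% to 1.62%. In the shallowest of them this exceeds the 1.06% of the first DNA-PKcs -/- G2 replicate. The mean was 0.102% ± 0.175 (SD, n = 6) with DNA-PKcs and 2.10% ± 1.60 (SD, n = 6) without. The stratified difference was 1.69 percentage points (0.314 to 3.67, higher in 3 of 4 strata), with an exact permutation p of 0.0278 and a p adjusted over the 6 windows of 0.111. It was 3.04 within run 1 and 1.48 within run 2. The effects with and without CtIP A/A differed by 1.76 points, with an exact permutation p of 0.347.

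These joins were scattered. The 102 without DNA-PKcs fell at 88 positions, at a median of 1535.5 bp and up to 2045 bp from the partner heptamer. Per 100 bp of partner sequence, turned joins without DNA-PKcs made up 1.31% ± 0.651 of substrate junctions (SD, n = 6) at 101 to 300 bp. They made up 0.246% ± 0.164 at 301 to 500 bp, 0.122% ± 0.171 at 501 to 700 bp and 0.119% ± 0.0933 at 701 to 1001 bp. The next means were 0.185% ± 0.211 at 1002 to 1301 bp, 0.230% ± 0.172 at 1302 to 1601 bp and 0.247% ± 0.188 at 1602 to 1901 bp, with SDs that overlap those before them. In the last stretch, 1902 to 2304 bp, the mean was 0.0283% ± 0.0192, from 6 joins. With DNA-PKcs the nearer values were 0.393% ± 0.288 at 101 to 300 bp and 0.244% ± 0.336 at 301 to 500 bp (SD, n = 6). They were 0.393% ± 0.493 at 501 to 700 bp and 0.0346% ± 0.0719 at 701 to 1001 bp. With DNA-PKcs the values at 1002 to 1301, 1302 to 1601 and 1602 to 1901 bp were 0.0105%, 0.00945% and 0.00945%, each from 1 or 2 joins. From 3814 on, turned joins outnumbered onward joins by 102 to 15 without DNA-PKcs, and the numbers were 6 and 13 with it.

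**Figure D3:**
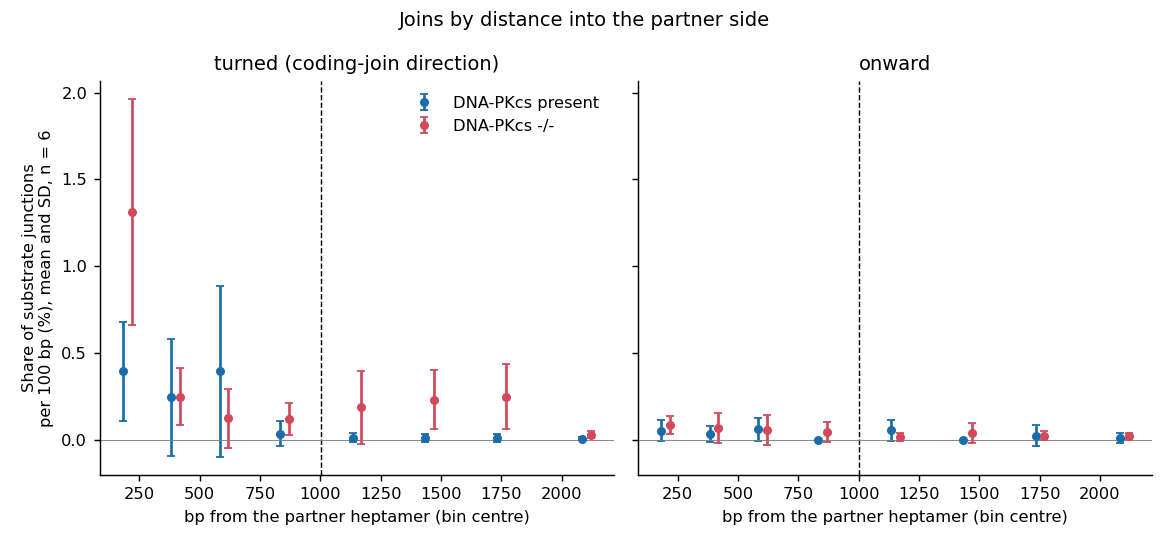
Share of substrate junctions per 100 bp against the distance from the partner heptamer, for turned and onward joins, as mean and SD over 6 libraries with and 6 without DNA-PKcs; the dashed line marks the start of the deep turned window. Turned joins without DNA-PKcs have means of 0.185% to 0.247% from 1002 to 1901 bp and 0.0283% beyond, and those with DNA-PKcs are at or below 0.0105% from 1002 bp on.

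Deep turned joins also differed in structure from the coding joins of the same libraries. In the 6 libraries without DNA-PKcs, 79.6% ± 14.2 (SD) shared 1 bp or more, against 41.1% ± 6.44 of coding joins, and the share was higher in 6 of 6 libraries. Overlaps of 4 bp or more made up 24.7% ± 27.4 against 3.69% ± 0.746, also higher in 6 of 6. The DNA-PKcs -/- G1 library, with 5 such joins, was at 80%, and without it the mean was 13.7% ± 4.77 (SD, n = 5). Direct joins made up 6.64% ± 6.72 against 35.9% ± 2.28 and were lower in all 6. The bait end was not shorter: 31.2% ± 7.21 had lost more than 20 bp, against 46.4% ± 11.9 of coding joins, and the value was higher in only 1 library. These comparisons were added after the data were seen and were not tested.

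Onward joins within the bait segment numbered 62 with DNA-PKcs (1.83% ± 0.829 of substrate junctions, SD, n = 6) and 52 without (0.767% ± 0.367, SD, n = 6). The highest were wild-type G1 and the first CtIP A/A G2 replicate, both at 2.55%. The lowest with DNA-PKcs was the second CtIP A/A G2 replicate at 0.538%, inside the range without DNA-PKcs (0.437% to 1.30%). The stratified difference was -1.14 percentage points (-1.90 to 0.0779, exact permutation p = 0.0556, adjusted p = 0.111, lower in 4 of 4 strata).

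Their geometry was of 2 kinds. In 61 the prey lay ahead of the bait end, which removed 12 to 115 bp of the bait segment (median 35 bp), and 20 of these read on through the uncut bait heptamer. In the other 53 the prey began behind the bait end, at a distance of 3 to 243 bp (median 125 bp). In 15 of them it began at positions above the nested primer, which the bait part of a read does not cover. Among the 53, 13 in 5 libraries began exactly at 2121, the first base of the nested primer printed above. Each of the 13 had a different bait end and an insertion, of 4 to 27 bp. Position 2026 had 14 joins in 9 libraries, and in 7 libraries of all 4 genotypes the bait ended at 2084 with the same 8 bp insertion length.

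The remaining windows were small. Onward joins far below the bait signal numbered 9 with DNA-PKcs, 8 of them in wild-type G1, and 26 without it, in all 6 libraries. The difference of 0.193 percentage points (-0.238 to 0.616) did not pass the test (exact permutation p = 0.361, adjusted p = 0.361, higher in 3 of 4 strata). Without the wild-type G1 library, and so without its stratum, it was 0.436 (exact permutation p = 0.0278, adjusted p = 0.0833). Of the 35, 31 lay at 550 to 850. At 828, a position picked out after its values were seen, 3 libraries without DNA-PKcs each had 1 join. The 3 bait ends differed, but the last 8 inserted bases were the same, and that stretch was not found in the substrate sequence read. Turned joins just short of the partner signal numbered 7, all in 4 libraries without DNA-PKcs. The difference was 0.149 percentage points, with an interval from no difference to 0.396 (exact permutation p = 0.0833, adjusted p = 0.125, higher in 3 of 4 strata).

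**Figure D4:**
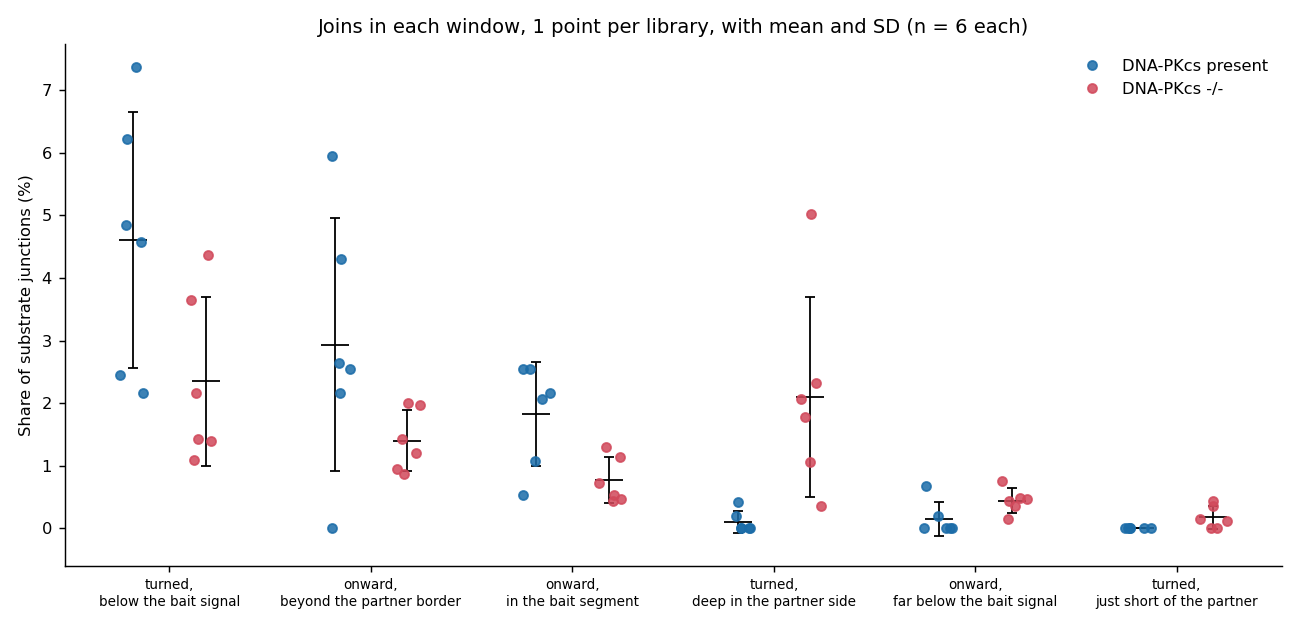
Share of substrate junctions (%) in each of the 6 windows, with 1 point per library and the mean and SD of the 6 libraries with and the 6 without DNA-PKcs. The deep turned window has means of 0.102% and 2.10%, and the turned window below the bait signal 4.60% and 2.35%; no window passed the adjusted test.

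Taken as 1 class over the 12 libraries, the joins away from the borders differed from the coding joins of the same library in each of 5 measures of structure. For insertions and bait deletions the means differed little in the libraries without DNA-PKcs, as given below. Overlaps of 1 bp or more were found in 59.3% of them on average and in 29.2% of coding joins, and the share was higher in 12 of 12 libraries (exact sign-flip permutation p = 0.000488, adjusted p = 0.00122). For overlaps of 4 bp or more the means were 37.5% and 3.24%, again higher in 12 of 12 (exact permutation p = 0.000488, adjusted p = 0.00122). This p is the smallest that 4096 arrangements can give. Direct joins made up 7.98% against 25.6% and were lower in 11 of 12 libraries (exact permutation p = 0.000977, adjusted p = 0.00163).

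With both the onward cluster at 2866 to 2890 and the turned joins at 943 to 1935 left out, an alternative added after the data were seen, the difference in direct joins was -11.6 percentage points and did not pass (exact permutation, adjusted p = 0.0684).

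Insertions were found in 32.7% of members and 45.2% of coding joins (lower in 10 of 12 libraries, exact permutation p = 0.0205, adjusted p = 0.0205). With only the turned joins at 943 to 1935 left out, also added after the data were seen, the difference changed from -12.5 to 3.10 percentage points. With only the onward cluster beyond the partner border left out, likewise added after the data were seen, the difference was -23.6. The inserted bases of most joins in that cluster were partner sequence, as described above. They counted as insertions wherever the cluster was kept. In libraries with DNA-PKcs, insertions were found in 41.9% ± 13.8 of members and 67.5% ± 2.04 of coding joins (SD, n = 6). In those without it the values were 23.5% ± 7.37 and 22.9% ± 5.65 (SD, n = 6). Bait deletions over 20 bp were found in 51.0% and 27.4% (higher in 10 of 12, exact permutation p = 0.00928, adjusted p = 0.0116). Without the onward joins in the bait segment, the difference changed from 23.6 to 13.3 points and did not pass (exact permutation, adjusted p = 0.0938). Bait deletions stood at 52.1% ± 16.5 of members and 8.37% ± 2.62 of coding joins with DNA-PKcs (SD, n = 6). Without DNA-PKcs they stood at 49.9% ± 11.6 and 46.4% ± 11.9 (SD, n = 6). Overlaps of 1 bp or more and of 4 bp or more stayed past the threshold under all 7 alternatives run, with differences of 11.9 to 40.6 and of 8.04 to 41.6 points.

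**Figure D5:**
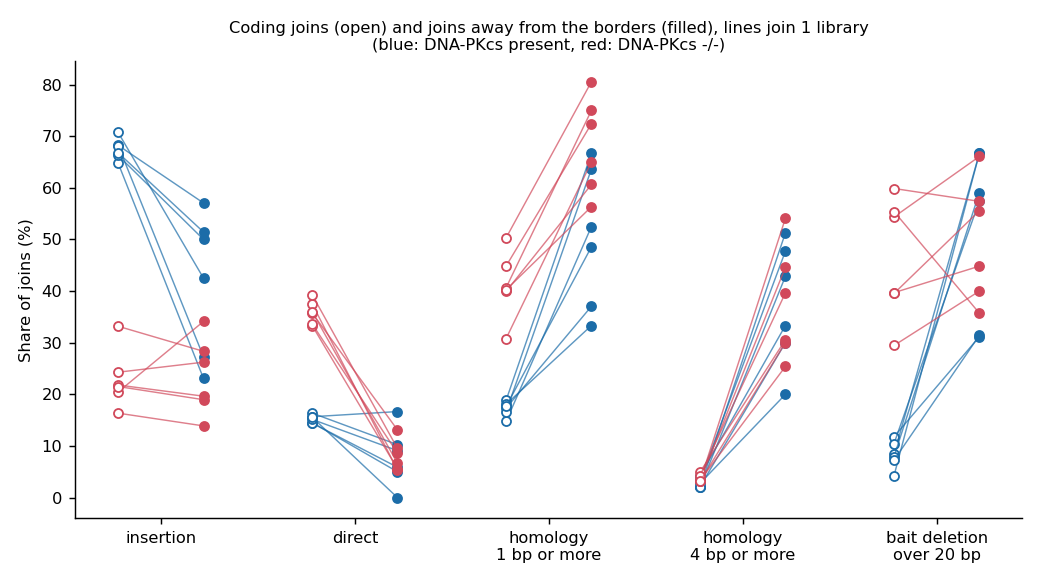
Share of joins (%) with each structure in coding joins (open) and in joins away from the borders (filled), with a line for each of the 12 libraries, coloured by DNA-PKcs. Overlaps of 1 bp or more and of 4 bp or more are higher away from the borders in 12 of 12 libraries.

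The structure of the members was then compared between libraries with and without DNA-PKcs. Overlaps of 1 bp or more were found in 33.3% to 66.7% of members with DNA-PKcs and 56.3% to 80.6% without it, so that the ranges overlap. The stratified means were 48.9% and 65.9%, a difference of 17.0 percentage points (3.88 to 35.5, exact permutation p = 0.0139, adjusted p = 0.0694, higher in 4 of 4 strata). Insertions had stratified means of 43.9% and 25.2%, a difference of -18.7 points (-32.6 to -3.47, exact permutation p = 0.0278, adjusted p = 0.0694, lower in 4 of 4 strata). With the onward cluster at 2866 to 2890 left out, the differences were 6.30 points for overlaps (exact permutation p = 0.472, adjusted p = 0.833) and -6.24 for insertions (exact permutation p = 0.5, adjusted p = 0.833). Leaving out 1 library at a time gave adjusted p-values from 0.0347, without the first CtIP A/A G2 replicate, to 0.208 for both measures. Direct joins, overlaps of 4 bp or more and bait deletions differed by 1.71, 3.58 and -1.07 points (exact permutation, adjusted p = 0.944 for each), with intervals of -8.00 to 7.23, -17.7 to 21.8 and -19.3 to 20.3. In coding joins, which the members' rule leaves out, insertions were found in 67.5% ± 2.04 (SD, n = 6) with DNA-PKcs and 22.9% ± 5.65 (SD, n = 6) without.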

How the data were processed

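The deposited tables list 1 junction per line, with prey chromosome, position and strand, bait end and read sequence, per the file headers. Per the labels' protocols, sonicated DNA was amplified with a bait and a nested primer, digested with BstBI and aligned to mm10 with the substrate as an added chromosome; the submitters' processing notes name Bowtie2. Version, junction caller and filters are not given in the sources used here. Libraries held 289 to 7068 junctions, of which 185 to 1855 on the substrate. Substrate features were located on the consensus of the reads, with which 99.6% of bases agreed. Overlap or gap of the alignments on a read gave homology or insertion. Effects were averaged over 4 strata and tested by exact two-sided permutation within strata (smallest p 0.0139, 0.0139 and 0.0123 for DNA-PKcs, CtIP and phase), and members against coding joins by exact sign flips, with Benjamini-Hochberg adjustment over 4, 6, 5 and 5 tests. Intervals are 95% by inversion of the test. The permutation code was tested on simulated data. Positions named are the 10 with the highest mean share of members among those in 2 or more libraries, and others where said. Members, windows and lists were chosen with earlier results of these data known.

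Replicate numbers of the G2 libraries pair them by sequencing run, as read names show: run 1 holds the first replicates only. Differences between replicates over the 6 windows had positive correlations between genotypes in 6 of 6 pairs (r 0.210 to 0.799). Each r rests on 6 windows only and was not tested, and the lowest is weak. Software was Python 3.11.15 with scipy 1.17.1, pandas 2.3.3, numpy 2.4.6 and, for plots, matplotlib 3.10.9.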

Additional observations from a re-analysis of the deposited data

How the results depend on the processing

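Members are few, 6 to 170 per library, and this limits every value here. No test of a share or a window passed its adjusted threshold as analysed. Repeat lines counted once gave an insertion difference from coding joins of -10.5, which no longer passed (adjusted p = 0.0693), and brought the DNA-PKcs effects on insertion (-16.2) and on overlaps of 1 bp or more (14.8) past the threshold (exact permutation, adjusted p = 0.0347). Trimming 50 bp from the window edges turned the DNA-PKcs effect on bait deletions to 0.324. Without the onward window in the bait segment, the bait deletion difference from coding joins was 13.3 (no longer passed), and the DNA-PKcs effects on overlaps of 4 bp or more and on bait deletions were -1.89 and 0.0491, with no test because 1 library had under 5 members. Within run 1 the DNA-PKcs effects on direct joins and overlaps of 4 bp or more were -2.68 and -7.36; within run 2 the phase effect was -1.90 and the effect on bait deletions 0.469.

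The other alternatives were added after the data were seen. Leaving out the cluster at 2866 to 2890 turned the DNA-PKcs effect on onward joins beyond the partner border to 0.107, and those on direct joins and overlaps of 4 bp or more to -0.0568 and -3.68. Leaving out turned joins at 943 to 1935 gave a phase effect of -0.980, differences from coding joins of 3.10 for insertion (reversed) and 11.6 for bait deletion (no longer passed), and a DNA-PKcs effect on bait deletions of 4.55. With both left out, the DNA-PKcs effect on the share of all junctions was -1.28 and on that of substrate junctions 0.0472, the phase effect -0.112 and the effect on the onward window 0.10, while the differences from coding joins for insertion (-12.9), direct joins (-11.6) and bait deletion (23.9) no longer passed.

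Leaving out each library in turn gave -0.263 to 3.17 for the CtIP effect, -0.889 to 2.77 for phase, -2.66 to -1.65 for turned joins below the bait signal and -2.28 to -0.795 for onward joins beyond the partner border. For the DNA-PKcs effects on the members' structure the ranges were -22.1 to -14.6 (insertion), -0.128 to 2.85 (direct), 12.8 to 21.3 (overlap of 1 bp or more), -6.59 to 6.31 (4 bp or more) and -10.2 to 5.83 (bait deletion). With the replicate block, permuting pairs of the same number together, the DNA-PKcs effect on the share of substrate junctions was -3.13 (exact permutation p = 0.25) and no call changed.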
